A study of Mus musculus with 19 samples.

Results

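The genes described here were the hair keratins and the keratin-associated proteins (KAPs), the structural proteins of the hair fibre and of the sheath that moulds it. Members were the rows whose gene symbol starts with Krtap, and the keratins of the inner root sheath (Krt25 to Krt28 and Krt71 to Krt73) and of the hair shaft (Krt31 to Krt36 and Krt81 to Krt87). They came to 78 of the 34807 rows of the table, 20 keratins and 58 KAPs, and all 78 passed the filter on low counts.

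Bulk RNA was sequenced from 15 skin tumours and from 4 samples of normal skin of female mice, kept, per the study, on a C57BL/6J background. The oncogene was induced at 7 to 20 weeks of age per the labels, which give no age at sampling for tumours or skin. The tumours, described in the labels as squamous cell carcinoma, were induced by activating BRAFV600E with CreERT2, a Cre recombinase that needs tamoxifen, under the control of the Ivl promoter (Ivl:BRAFV600E, 6 tumours), the Krt5 promoter (K5:BRAFV600E, 5 tumours) or the Krt14 promoter (K14:BRAFV600E, 4 tumours). Normal skin was labelled WT and came, per the study, from control littermates. Following the study, the K5 and K14 tumours were also merged (K5/K14, 9 tumours), besides being compared with each other. Ivl marks a progenitor population and differentiating cells of the epidermis, and Krt5 and Krt14 mark basal keratinocytes, so each promoter restricts where the oncogene first acts but not what else a piece of bulk tissue holds. The inducing agent was painted on shaved backs, as tamoxifen for Ivl mice and as 4-hydroxytamoxifen for K5 and K14 mice. The labels give neither the body site of a tumour nor the hair cycle stage of the skin, and do not say that each sample is a separate animal, so p-values measure the spread between these samples. Per the study, K5 and K14 mice had a tumour only on the back, where the agent was applied. Ivl mice had lesions at various sites, among them back, paws, ears and lips. Which of these sites each Ivl tumour came from is not given.

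Hair is made only while a follicle is growing. Cells of the matrix at its base move up and differentiate in concentric layers, the inner root sheath on the outside and the cuticle and cortex of the shaft within. Type I and type II keratins pair to form the filaments of each layer, and in the shaft the filaments are embedded in a matrix of KAPs, small proteins rich in cysteine or in glycine and tyrosine. In a resting follicle that production stops. In bulk tissue, fewer cells of a type and less RNA per cell cannot be told apart.

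Library totals lay between 45715309 and 72609771 counts, and 3 counts corresponded to 0.0281 to 0.0760 CPM (counts scaled to a common library size with TMM factors). The counts had been adjusted by the authors for a sequencing batch. In 4 libraries (Ivl tumours 1, 2 and 3 and K5 tumour 1), the set's mean differed by no more than 0.1 log2 from that of the other 15, which include all skin samples, in 96.6% of 13954 genes. For the members this held in 8 of the 60 expressed highly enough for the comparison (13.3%), with a median difference of -0.30. The adjusted batches were sequenced at different times and held 4 and 15 libraries, which are not named in the sources used here. Each comparison is given with and without this set.

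The members sit in clusters. On GRCm38, 11 of the keratins (type I) and 23 KAPs lie on chromosome 11, the other 9 keratins (type II) on chromosome 15, and the remaining KAPs on chromosomes 16 (25), 7 (5), 10 (3) and 1 (2). Composition of the encoded proteins, from the annotated coding sequences, split the KAPs into 21 ultra-high sulphur (at least 30% cysteine, median 37.7%), 15 high glycine-tyrosine (at least 35% glycine and tyrosine, median 63.3%) and 21 others, called high sulphur here (median 20.1% cysteine). Krtap19-9a, with no coding sequence in the annotation, stayed unclassed. The inner root sheath keratins held 1.72% to 2.24% cysteine and the shaft keratins 2.49% to 7.69%, the lowest of the shaft keratins being Krt84. Of the 78 members, 7 overlap another gene, and 19 share over 10% of their exonic 101-base windows with another gene (Krtap4-13 62.5%, Krt81 24.8%, Krt86 24.2%), so their counts could be split between copies.

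Since the members rose and fell together from library to library (below), the bases just before their starts are shown for the member with the highest mean level of each class and keratin type among those with an entry in the RefSeq promoter table (GRCm38.p6). For type II shaft keratins that member is Krt84, which followed another pattern. Each run is the 90 bases before the start, 5′ to 3′ on the strand of the gene, which is the minus strand in every case. Capitals mark TATAAA, the TATA box motif, searched on both strands. The longer run of capitals in Krtap1-5 is a match on each strand that overlap.
Krt25 (inner root sheath, type I, chr11:99322952-99323041): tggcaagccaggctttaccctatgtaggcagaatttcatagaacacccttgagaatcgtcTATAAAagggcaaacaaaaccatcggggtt
Krt71 (inner root sheath, type II, chr15:101743098-101743187): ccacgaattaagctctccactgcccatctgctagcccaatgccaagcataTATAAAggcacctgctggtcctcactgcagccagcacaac
Krt31 (hair shaft, type I, chr11:100050552-100050641): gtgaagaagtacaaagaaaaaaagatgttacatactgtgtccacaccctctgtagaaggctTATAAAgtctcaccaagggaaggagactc
Krtap4-1 (ultra-high sulphur KAP, chr11:99628240-99628329): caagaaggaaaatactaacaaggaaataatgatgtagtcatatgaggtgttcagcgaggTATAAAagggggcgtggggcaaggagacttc
Krtap1-5 (high sulphur KAP, chr11:99581017-99581106): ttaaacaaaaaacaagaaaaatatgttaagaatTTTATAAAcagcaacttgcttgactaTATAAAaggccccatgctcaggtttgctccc
Krtap8-1 (high glycine-tyrosine KAP, chr16:89487953-89488042): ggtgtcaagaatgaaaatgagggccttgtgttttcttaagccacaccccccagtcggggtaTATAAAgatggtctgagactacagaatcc
Krt84 (hair shaft, type II, chr15:101532821-101532910): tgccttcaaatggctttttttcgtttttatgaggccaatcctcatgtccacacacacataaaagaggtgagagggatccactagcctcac

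Of the 65 members with a promoter entry, 50 (76.9%) held TATAAA in this window, against 1681 of 32851 promoters of all genes (5.12%), and its first base lay a median of 31 bases before the start. The motif was present in 6 of 7 inner root sheath keratins, 4 of 7 shaft keratins, 14 of 17 ultra-high sulphur, 15 of 19 high sulphur and 11 of 15 high glycine-tyrosine KAPs. The keratins whose window lacked it were Krt72, Krt36, Krt82 and Krt84. Short core motifs of factors known in the hair matrix were scarce. The LEF1/TCF motif CTTTGAA was in 0 of the 65 windows (1.25% of all promoters) and its second form CTTTGAT in 1 (1.54% against 1.06%). The posterior HOX core TTTATNG, searched on both strands because Hoxc13 acts in the follicle, was in 4 (6.15% against 3.61%). These were the inner root sheath keratins Krt25, Krt26 and Krt73, and Krtap29-1. In all 4 the match lay on the other strand and overlapped the TATAAA already counted, so it is no separate motif. The FOXN1 core ACGC was in 9 (13.8% against 29.02%). A match describes the letters and not a bound site, and its absence says only that these letters are not in the 90 bases.

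The summed level of the 78 members differed widely between samples of the same group. In normal skin it was 5427, 16.1, 2177 and 2386 CPM in samples 1 to 4. In the 6 Ivl tumours it ran from 7.84 to 2696 with a median of 778 CPM, the single tumours being at 7.84, 2696, 1243, 313, 23.9 and 1365. Normal skin 2 and Ivl tumours 1 and 5 were thus low, and the other samples of both groups were high or, in Ivl tumour 4, intermediate.

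K5 tumours were low throughout, at 27.3, 14.3, 14.4, 13.1 and 15.1 CPM. K14 tumours were at 2140, 93.2, 15.1 and 13.3 CPM. With TMM scaling, K14 tumour 1 therefore stood at the level of normal skin 3 and 4, and K14 tumour 2 between it and the rest. Under library totals the sum was 2109 CPM in K14 tumour 1, below the 3244 and 3404 CPM of normal skin 3 and 4. The highest sample exceeded the lowest 338-fold within normal skin, 344-fold within Ivl tumours and 161-fold within K14 tumours, but only 2.09-fold within K5 tumours. The ranges of Ivl tumours, K14 tumours and normal skin overlapped.

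**Figure D1:**
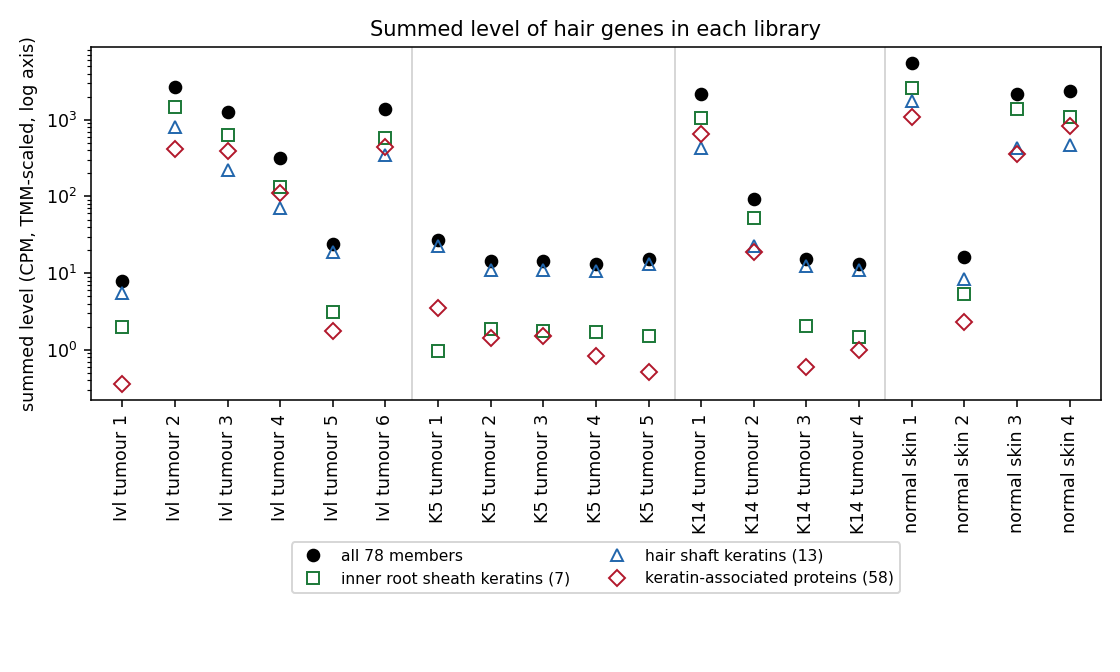
Summed level of the hair genes in each of the 19 libraries (CPM scaled with TMM, log axis), for the 78 members together (black circles) and for the 7 inner root sheath keratins, the 13 hair shaft keratins and the 58 KAPs. Each point is 1 library, and grey lines part the groups. Normal skin 2, at 16.1 CPM in all, lies with the low tumours, and K14 tumour 1, at 2140 CPM, with the other skin samples.

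The pattern held member by member. Normal skin 2 was the lowest of the 4 skin samples for 76 of the 78 members, and K14 tumour 1 the highest of the 9 K5/K14 tumours for 76. At most 3 counts were found for 65 members in all 5 K5 tumours, and the 7 members above 3 counts in each of them were Krt27, Krt32, Krt36, Krt71, Krt83, Krt84 and Krtap3-2. By contrast 75, 68 and 71 members lay above 1 CPM in normal skin 1, 3 and 4, and 72 in K14 tumour 1. Spread between samples of a group, as edgeR's biological coefficient of variation, had a median of 2.57 over the members against 0.496 over all 32031 genes tested, and 72 of the 78 members exceeded 1.601, the 95th percentile of all genes. The lowest value was that of Krt84, 0.628.

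**Figure D2:**
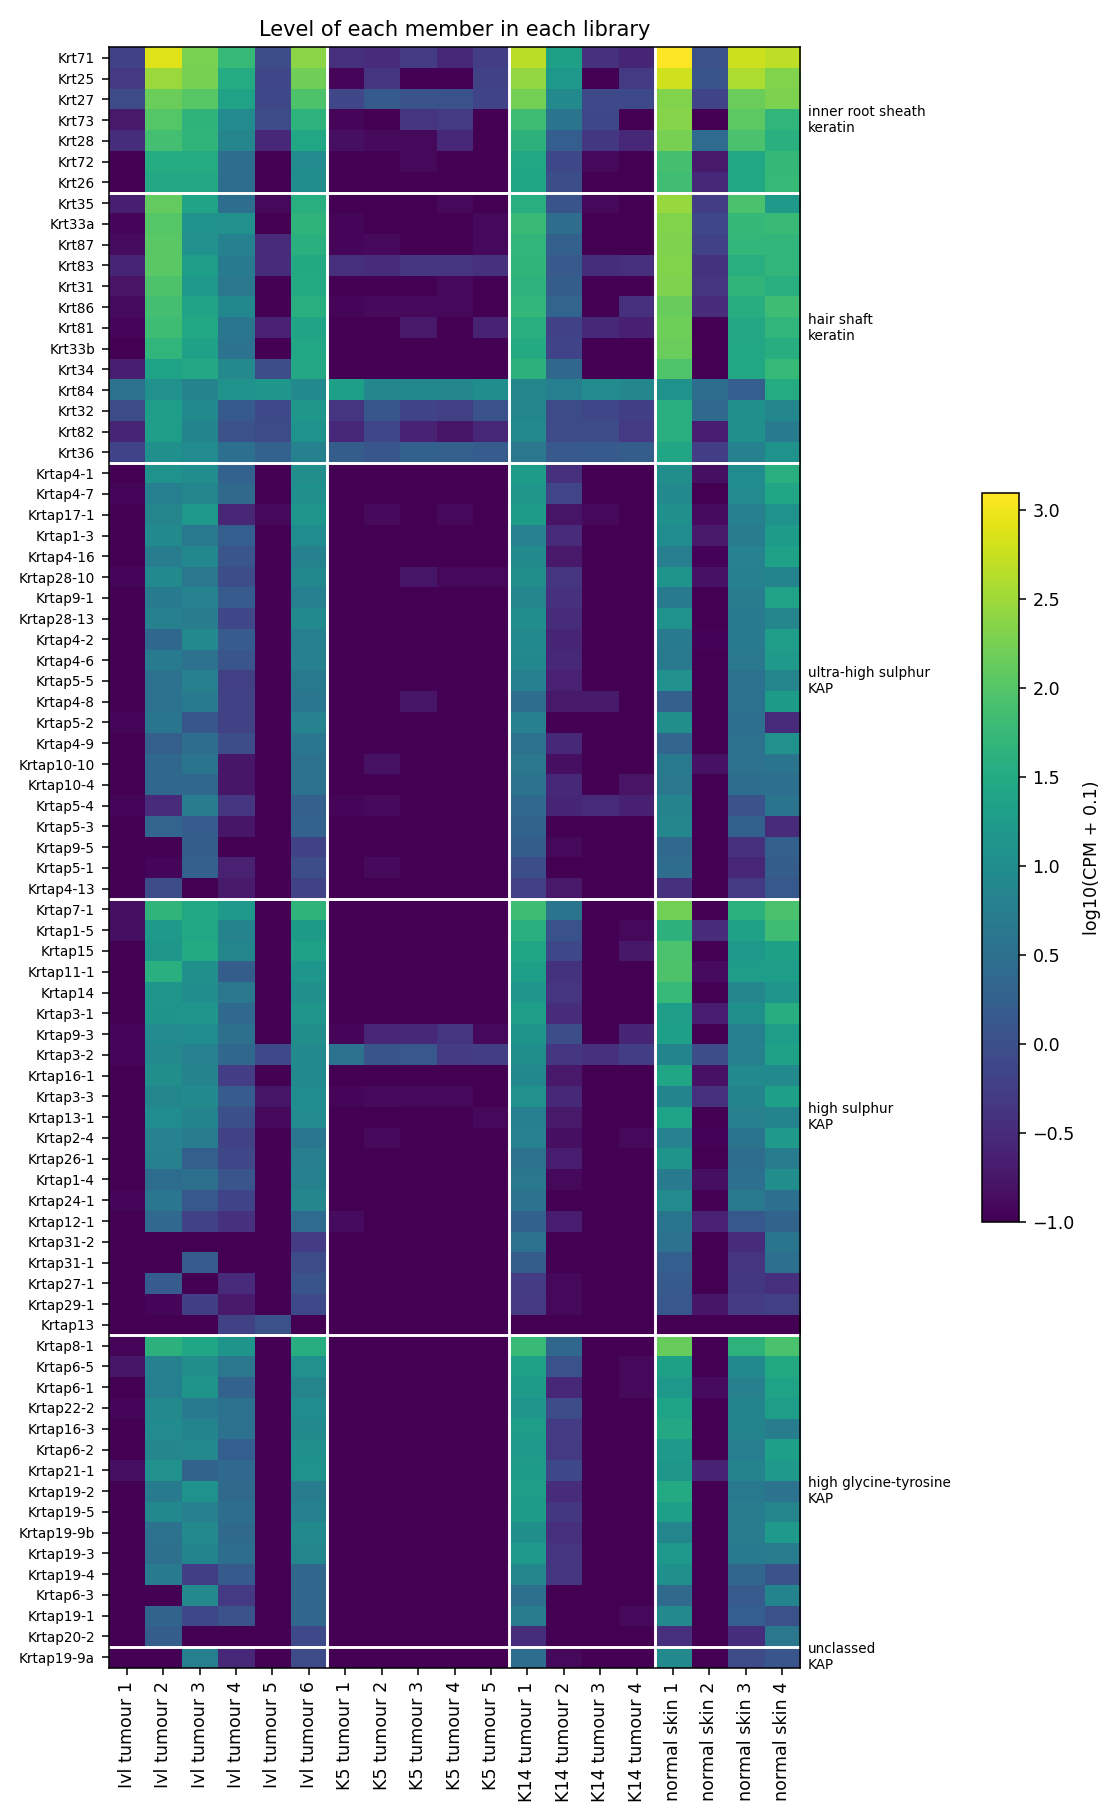
Level of each member (rows, by class and then by mean level) in each library (columns), as log10(CPM + 0.1). Columns switch between high and low as a whole, while Krt84, Krt36, Krt32 and Krtap3-2 form rows that keep a signal in the low tumours.

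Within the inner root sheath keratins, Krt71 and Krt25, the partners that build filaments in its layers, had the highest levels. Per kb of exon, Krt71 and Krt25 had the highest levels of the 78 members in normal skin, with 563 and 315 CPM per kb in normal skin 1. Krt71 was at 1231, 0.922, 603 and 479 CPM in normal skin, and at 0.507 to 786 CPM in Ivl tumours (median 121). It was at 464, 21.1, 0.287 and 0.167 CPM in K14 tumours and at 0.187 to 0.454 CPM in K5 tumours. The values of Krt71 thus split every group but the K5 tumours. Krt27 and Krt28, further type I keratins of this sheath, were at 208 and 175 CPM in normal skin 1 and at 0.573 and 2.59 in normal skin 2. Krt26, Krt72 and Krt73, keratins of the sheath's cuticle, reached 67.6, 75.7 and 219 CPM in normal skin 1 and 26.7, 27.3 and 65.2 in K14 tumour 1, and at most 0.396 CPM in any K5 tumour.

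Type I and type II sheath keratins, which polymerise in equal amounts, were also close in summed level per kb where they were high. The ratio of type II to type I was 1.22, 0.98 and 1.003 in normal skin 1, 3 and 4, 0.92 in K14 tumour 1, 0.80 in K14 tumour 2, and 0.85 and 0.86 in Ivl tumours 4 and 6. It was 1.42 and 0.63 in Ivl tumours 2 and 3, both of the set of 4.

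Among the shaft keratins, Krt35, known from the earliest keratinising cells above the matrix, was at 285, 0.461, 83.1 and 15.4 CPM in normal skin. The cortex keratins Krt31, Krt33a, Krt33b and Krt34 (type I) were at 92.0 to 207 CPM in normal skin 1, and Krt81, Krt83 and Krt86 (type II) at 137 to 204. Krt87 was at 198 CPM there. In normal skin 2 these 8 genes lay between 0 and 0.629 CPM, and in K5 tumours between 0 and 0.339. The cuticle keratins Krt32 and Krt82 were lower, at 37.7 and 38.1 CPM in normal skin 1. Ratios between shaft keratins and other members varied among the high skin samples. Krt35 against Krt25 was 0.45 in normal skin 1, 0.21 in normal skin 3 and 0.08 in normal skin 4.

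Krt84 did not follow the rest. It was at 12.2, 2.92, 1.55 and 32.6 CPM in normal skin, and at 3.397 to 14.2 CPM in Ivl tumours (median 10.4). In K5 tumours it was at 20.5, 7.82, 8.13, 7.86 and 9.96 CPM, and in K14 tumours at 7.36, 5.81, 9.22 and 7.85. In TMM-scaled CPM every tumour thus held Krt84 above normal skin 2 and 3, also where other members were at or near 0. For Ivl tumour 1 against normal skin 2 this rests on the scaling, with 221 of 68006115 counts against 260 of 57985400. Krt84 made up 43.3% to 74.97% of the summed level in the 9 tumours with the lowest sums (Ivl tumours 1 and 5, all K5 tumours and K14 tumours 3 and 4). Krt84 and Krt36 are known from the filiform papillae of the tongue as well as from hair. Krt36 was at 1.16 to 1.74 CPM in K5 tumours and at 4.02, 1.31, 1.32 and 1.48 CPM in K14 tumours. Normal skin 2, at 0.461 CPM, was below each of them, and normal skin 1, 3 and 4 (26.0, 6.12 and 12.2) above.

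**Figure D3:**
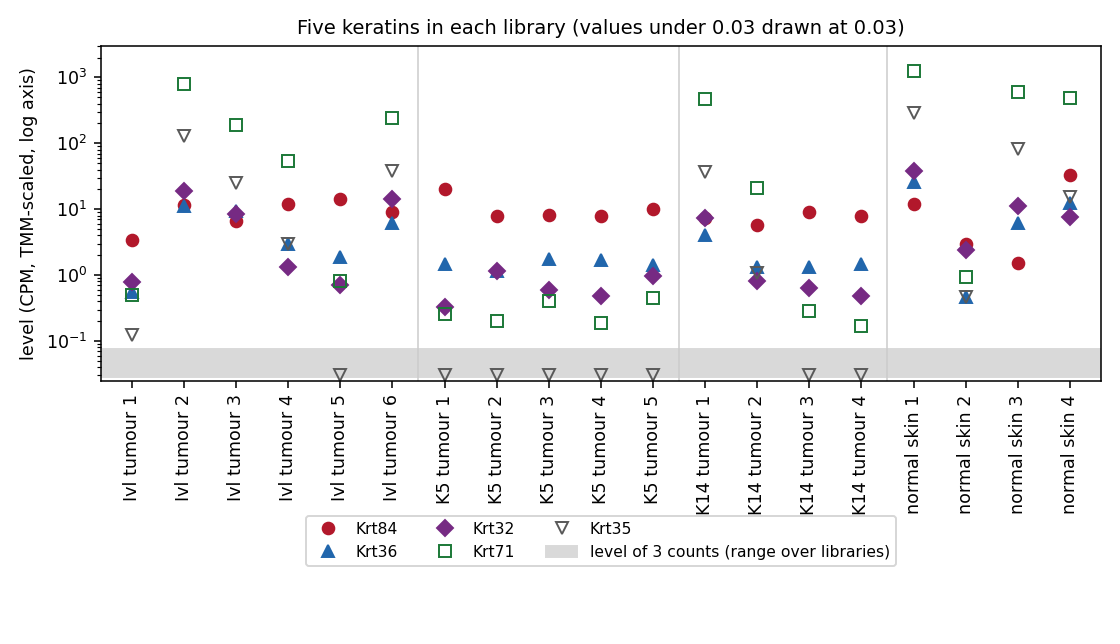
Levels of Krt84, Krt36 and Krt32 (filled) and of Krt71 and Krt35 (open) in each library (CPM scaled with TMM, log axis), with values under 0.03 drawn at 0.03 and the level of 3 counts shaded. Krt71 spans 0.167 to 1231 CPM, while Krt84 stays between 1.55 and 32.6 CPM.

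The KAPs of the 3 classes followed the keratins. Ultra-high sulphur KAPs, cross-linked late in the fibre, were led by Krtap4-1, Krtap4-7 and Krtap17-1. Krtap4-1 was at 10.6, 0.0450, 9.62 and 38.5 CPM in normal skin, 17.4 in K14 tumour 1 and 0 in all K5 tumours. Krtap4-7 and Krtap17-1 were at 26.3 and 11.98 CPM in normal skin 4 and at 14.4 and 18.2 in K14 tumour 1. Here normal skin 4, and not normal skin 1, held the highest level of both Krtap4 genes, as it did of Krt84, while normal skin 1 held the highest of the other keratins.

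Of the high sulphur KAPs, Krtap7-1, Krtap1-5 and Krtap15 had the highest mean levels. Krtap7-1, at 29.9% glycine and tyrosine, falls just short of the glycine-tyrosine class and Krtap15 holds 4% cysteine, so the remainder class is mixed. Krtap7-1 was at 166, 0, 41.2 and 83.5 CPM in normal skin and at 66.4, 3.71, 0 and 0 in K14 tumours. Krtap1-5 and Krtap15 reached 64.8 and 85.6 CPM in skin, and 0 in every K5 tumour. Of the high glycine-tyrosine KAPs, Krtap8-1 was at 138, 0, 44.2 and 82.2 CPM in normal skin, 57.2 in K14 tumour 1 and 35.1 in Ivl tumour 6. Krtap6-5 and Krtap6-1 were at 30.4 and 23.9 CPM in normal skin 4 and at 22.1 and 17.8 in K14 tumour 1. Per kb of exon Krtap7-1 and Krtap8-1 came next after Krt71 and Krt25 in normal skin.

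Make-up by class also differed among the samples with a high sum. Inner root sheath keratins were 48.0%, 64.0% and 45.1% of the summed level in normal skin 1, 3 and 4, and KAPs were 20.0%, 16.6% and 35.2%. In K14 tumour 1 these shares were 49.8% and 30.3%, and in Ivl tumours 4 and 6 KAPs made up 35.1% and 32.6%. Ultra-high sulphur KAPs ranged from 2.58% of the sum in normal skin 1 to 9.96% in normal skin 4. In those 9 tumours and in normal skin 2, shaft keratins held 52.2% to 86.4%. K14 tumour 1 exceeded normal skin 3 for 59 of the 78 members (20 of 21 ultra-high sulphur and 14 of 15 high glycine-tyrosine KAPs, but 1 of 7 inner root sheath keratins), but normal skin 4 for 28 and normal skin 1 for 18. Ivl tumour 6 exceeded normal skin 3 for 55 members (0 of the 7 inner root sheath keratins), but normal skin 4 for 21 and normal skin 1 for 14. With 1 library on each side these counts carry no test. They hold for TMM-scaled CPM and were not taken under library totals.

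**Figure D4:**
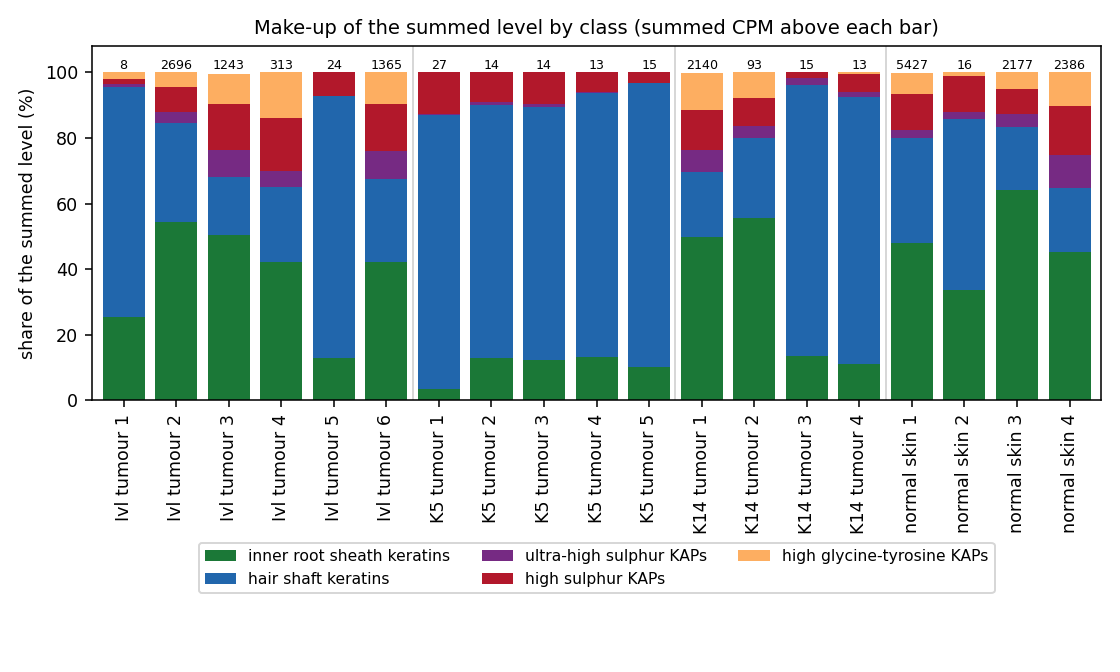
Share of each class in the summed level of the members in each library (bars from 0, in %), with the summed CPM above each bar and the unclassed Krtap19-9a left out. Inner root sheath keratins make up 42.1% to 64.0% in the 9 libraries with the highest sums, and shaft keratins 52.2% to 86.4% in the other 10.

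To ask which members differed between Ivl tumours and normal skin, all 34807 rows were filtered and fitted together (edgeR, 32031 genes tested). Among the members, 0 of 78 passed an adjusted p of 0.05, where 35.9% of all genes did. At an unadjusted p under 0.05 there were 2 (48.7% of all genes), and DESeq2 also called 0 (36.5% of all genes). Fold changes were below 0 for 77 members, with a median of -1.29 on the log2 scale against -0.46 over all genes and standard errors with a median of 2.01. Krt71 gave -1.45 ± 2.22 (SE) and Krt84 -0.37 ± 0.59. For 0 members did the ranges of both groups lie apart, against 22.2% of all genes. No difference passed the test against the spread between samples. Without the set of 4 (Ivl tumours 4, 5 and 6 against skin) 1 member was called, where 54.9% of all genes were and 22.2% were higher. It was Krtap13, with an adjusted p of 0.023 by edgeR's quasi-likelihood test. Krtap13 passed the low-count filter only through Ivl tumours 4 and 5, where it is high, so this call is no independent support. With at least 10 counts required in 4 libraries, 77 members were tested and Krtap13 was not among them.

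Krtap13 did not follow the other members. It was counted 27 times in Ivl tumour 4 and 40 times in Ivl tumour 5 (0.536 and 0.937 CPM), and 0 times in each of the other 17 libraries. Over all 6 Ivl tumours its mean was at least 6.206-fold higher than the highest 3-count floor of any skin library, and at least 12.4-fold over Ivl tumours 4 to 6. Both means come from Ivl tumours 4 and 5 alone, through which Krtap13 passed the filter. They therefore do not describe the Ivl group and are no support for a difference. Over the 19 libraries its adjusted p was 0.077 (edgeR). Krtap13 shares 16.8% of its windows with another gene. Ivl tumours 4 and 5 were also the highest in Krt13, a mucosal keratin, at 2446 and 2592 CPM, against 80 to 985 CPM in the other Ivl tumours and 0.4 to 1.1 in skin.

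Against normal skin, K5/K14 tumours had 6 of 78 members lower and 0 higher by the same test, where 62.2% of all genes were called and 38.9% were lower, so the share called was smaller among the members than over all genes. The median fold change was -3.06 on the log2 scale (all genes -0.60), below 0 in 77 members, and Krtap13 was at 0 in both groups. Ranges of tumours and skin overlapped for every member, where they lay apart for 41.4% of all genes. The 6 members were 3 shaft keratins, Krt36, Krt32 and Krt82, and 1 KAP of each class, Krtap20-2, Krtap29-1 and Krtap4-8.

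Krt36 fell by 2.68 ± 0.66 on the log2 scale (SE, adjusted p = 0.0022, edgeR). The cuticle keratin Krt32 was at 37.7, 2.41, 11.2 and 7.63 CPM in normal skin, at 0.334 to 1.14 CPM in K5 tumours and at 7.34, 0.807, 0.647 and 0.480 CPM in K14 tumours, and fell by 3.37 ± 0.92 (adjusted p = 0.0045, edgeR). All K5/K14 tumours but K14 tumour 1 were thus below each skin sample, and the groups overlapped through that 1 tumour. Krt82 was at 38.1, 0.112, 11.3 and 4.52 CPM in skin and at 0.0700 to 8.43 CPM in K5/K14 tumours (median 0.397), and fell by 3.38 ± 1.25 (adjusted p = 0.026, edgeR).

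Krtap20-2 and Krtap29-1 had few counts in most samples. Krtap20-2, a high glycine-tyrosine KAP of 60 residues, was counted 19, 0, 26 and 416 times in normal skin, 12 times in K14 tumour 1 and 0 times in the other 8 K5/K14 tumours (adjusted p = 0.0094, edgeR). Krtap29-1 was counted 90, 7, 44 and 50 times in skin, 19 times in K14 tumour 1, 1 time in K14 tumour 2 and 0 times elsewhere in K5/K14 tumours (adjusted p = 0.021). Krtap4-8 was at 1.69, 0, 3.205 and 16.6 CPM in skin (128, 0, 342 and 1701 counts). It was at 2.79 CPM in K14 tumour 1 (139 counts, adjusted p = 0.043, edgeR). Normal skin 4 held most of Krtap20-2 and Krtap4-8, and both calls were lost without it (adjusted p = 0.20 and 0.27, edgeR) and with DESeq2 (adjusted p = 0.13 and 0.10). DESeq2 called 7 members in all (58% of all genes), of which 4 were among the 6. Those of Krt82 and Krtap29-1 were lost without normal skin 1 (adjusted p = 0.19 and 0.089, edgeR).

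K14 tumour 1 decided how many members were called. Without it, 76 of the 78 fell in K5/K14 tumours (62.8% of all genes called), with a median of -7.92, and Krt84 and Krtap13 were the 2 left. Without normal skin 2 the number was 13. Within the 15 libraries outside the set of 4 it was 5, the same genes but Krtap4-8, where 66.2% of all genes were called and 42.3% were lower.

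**Figure D5:**
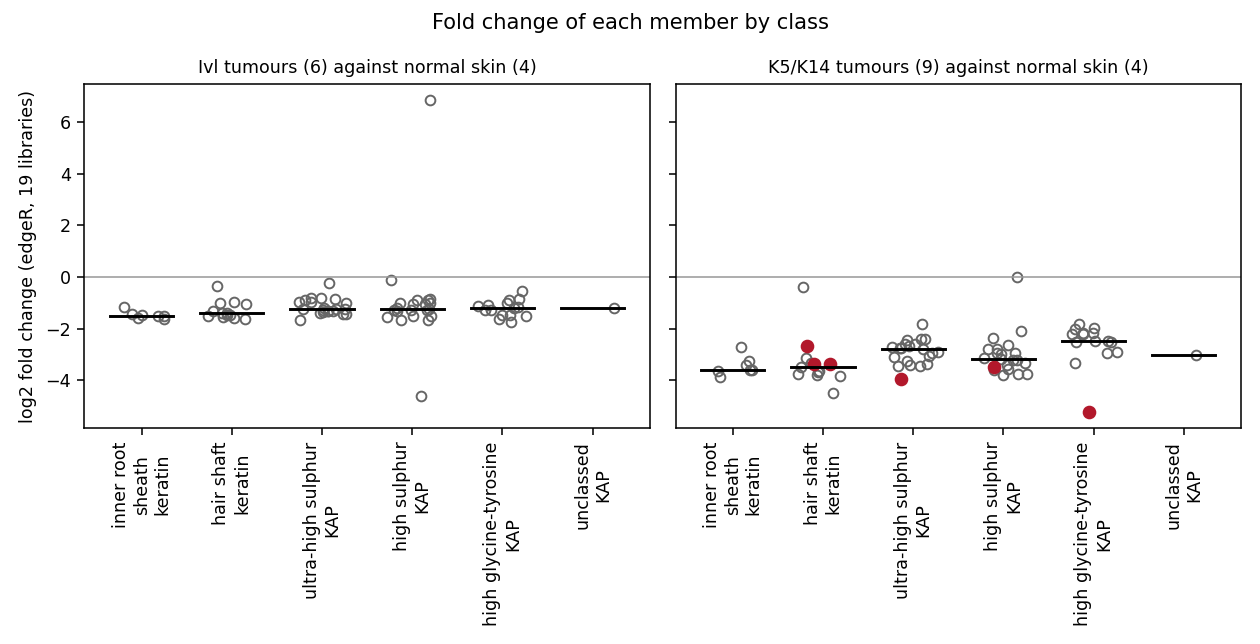
Log2 fold change of each member by class, in Ivl tumours (left, n = 6) and K5/K14 tumours (right, n = 9) against the same 4 normal skin samples. Filled points passed an adjusted p of 0.05 (edgeR, 0 on the left and 6 on the right), and bars are class medians. Both panels share the skin samples.

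All class medians were below 0. In Ivl tumours their medians lay at -1.52 for the 7 inner root sheath keratins, -1.42 for the 13 shaft keratins, -1.24 for ultra-high sulphur, -1.23 for high sulphur and -1.22 for high glycine-tyrosine KAPs. In K5/K14 tumours they were -3.61, -3.51, -2.80, -3.20 and -2.49 in that order. Differences between the classes were not tested.

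Ivl and K5/K14 tumours differ in the cell of origin and in the inducing agent. Per the study they also differ in the time to tumour onset and in the sites of lesions. These differences cannot be told apart here. Between Ivl and K5/K14 tumours 0 of 78 members passed (edgeR), where 2.36% of all genes did. At an unadjusted p under 0.05 there were 5 (21.1% of all genes), and DESeq2 called 1, Krt32 (6.66% of all genes). Fold changes were above 0 for 77 members, with a median of 1.81 (all genes 0.11) and a median standard error of 1.67. Ranges lay apart for 0 members and for 0.656% of all genes. Without K14 tumour 1 the number called was 56 (4.15% of all genes), with a median of 6.58. Krt32 was 2.39 ± 0.84 higher in Ivl tumours on the log2 scale (adjusted p = 0.12, edgeR). Within the 15 libraries 0 passed (0.41% of all genes), and the median was 1.11.

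Between K5 and K14 tumours edgeR called 0 of 78 members and 0% of all genes, with 71 members at an unadjusted p under 0.05 (6.07% of all genes), while DESeq2 called 48 (0.54% of all genes), all lower in K5 tumours. The 71 rested on K14 tumour 1, since without it they were 4, and the median fold change went from -9.14 to -4.37. As 65 members had at most 3 counts in every K5 tumour, fitted folds have no fixed size here. Values of Krt28 and Krtap5-4 did not overlap between the groups, as was the case for 4.44% of all genes. For Krt28 the gap was slight, since K5 tumour 4 was at 0.187 CPM and K14 tumour 4 at 0.188. Within the 15 libraries the counts were 0 (0.0532% of all genes) by edgeR and 48 (1.6%) by DESeq2.

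Genes that work beside the members in the follicle were taken from lists of markers. The lists overlap and are not independent, with Tchh and Padi3 in those of the sheath and shaft partners. They also share Krt74 (sheath partners and companion layer) and Krt15 (companion layer and bulge). Their counts can be read against 38.9% of all genes lower and 23.2% higher in K5/K14 tumours than skin, 15.5% lower and 20.4% higher in Ivl tumours, and 32.7% lower in Ivl tumours without the set of 4. Of 12 regulators of the hair matrix and precortex, 10 fell and 0 rose in K5/K14 tumours, among them Lef1, the effector of Wnt signalling in the matrix (-4.29 ± 0.90, adjusted p = 0.00071, edgeR), and Hoxc13, a regulator of hair keratin genes (-3.59 ± 0.99, adjusted p = 0.0052, edgeR). In Ivl tumours 1 of 12 was lower, Wnt10b, and 8 of 12 without the set of 4. Lef1 was at 58.7, 5.1, 16.0 and 4.1 CPM in normal skin 1 to 4, so normal skin 4, high in the members, was no higher in it than normal skin 2. Hoxc13 was at 85.6, 4.6, 26.9 and 22.9 CPM. Its lowest skin sample was normal skin 2, as for the members.

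Of 12 partners of the hair shaft, 6 were lower in K5/K14 tumours (Dsg4, a desmosomal cadherin of the shaft, -4.004 ± 1.19 on the log2 scale, adjusted p = 0.0080 by edgeR) and 0 passed in Ivl tumours. The partners of the inner root sheath split, with 5 of 10 higher and 3 lower in K5/K14 tumours, and 5 higher and 1 lower in Ivl tumours. Those higher in both (Tgm3, Cdsn, Ctsl, Ovol1 and Sprr1a) are known from the interfollicular epidermis too, and those lower in K5/K14 tumours were Tchh, the trichohyalin of the sheath, Gata3 and Krt74. Tchh was at 1972, 34.8, 829.4 and 957 CPM in normal skin and at 868, 132, 100 and 102 in K14 tumours. Its lowest skin sample was again normal skin 2, but its lowest value in any of the 19 libraries was 26.7 CPM.

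Other parts of the follicle and of the skin moved with the members in some libraries and not in others. Dermal papilla genes were lower in K5/K14 tumours in 9 of 10 cases, and genes of the bulge and outer root sheath in 9 of 10, against 0 and 2 of 10 in Ivl tumours (7 and 7 without the set of 4). Of 8 keratins of the companion layer and other follicle parts 5 were lower and 1 higher, Krt17, which was also the 1 that passed in Ivl tumours. Normal skin 2 held 2050 CPM of the bulge and outer root sheath genes, within the 662 to 2410 CPM of the other skin samples, and the bulge genes Lhx2 and Lgr5 were at 30.3 and 23.1 CPM there. That sum covers 10 genes, among them Krt15 and Postn, and how much of it came from follicles was not tested. Normal skin 2 also held the most skeletal muscle RNA of all libraries, at 7840 CPM over 10 genes, against 2656 to 4446 in the other skin samples.

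Among tumours, muscle RNA stood at 4673 and 1649 CPM in Ivl tumours 2 and 3, both of the set of 4. It stood at 589 CPM in Ivl tumour 6 and 544 in K14 tumour 1, and these were together the tumours highest in the members. It was at 5.09 to 188 CPM in the other 11, of which Ivl tumour 4 (313 CPM of members, 8.67 of muscle) and K14 tumour 2 (93.2 and 20.8) held members with little muscle. Sebaceous gland genes were at 1303 CPM in K14 tumour 1 and 461 to 474 in the other K14 tumours, against 1953 to 5734 in skin. Melanocyte genes were at 427 CPM in normal skin 1 and 56.9 in K14 tumour 1, and at 216 in K5 tumour 1, which was low in the members. In K5/K14 tumours the genes below skin were all 10 muscle genes, 6 of 10 sebaceous, 6 of 10 adipocyte and 4 of 10 melanocyte genes, against 0, 0, 0 and 3 in Ivl tumours (4, 4, 4 and 8 without the set of 4). Of 10 genes of the interfollicular epidermis 8 were higher in each tumour group, and 2 were lower in K5/K14 tumours. What part skin lying next to a tumour, or the hair cycle stage of a sample, has in the levels of the members was not tested. Nor was the part of the batch adjustment in the muscle and member levels of the set of 4.

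Keratins of the oral and filiform papilla list, which shares Krt36 and Krt84 with the members, were described without them. Of its other 8 genes 7 were higher in Ivl tumours and 4 higher and 1 lower in K5/K14 tumours, Krt13 by 10.53 ± 1.48 and 3.996 ± 1.09 on the log2 scale (adjusted p = 3.7e-05 and 0.0046, edgeR). Krt84 itself did not pass in either comparison, at -0.37 ± 0.59 in Ivl and -0.39 ± 0.54 in K5/K14 tumours. Without normal skin 4, the skin sample highest in it, these became 0.75 and 0.74.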

How the data were processed

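Poly(A) RNA was sequenced as paired reads from a strand-specific kit. Per the study, the authors trimmed reads (Trim Galore, FastQC 0.11.8), aligned them to GRCm38 (HISAT2 2.1.0), counted them per gene (featureCounts, Subread 1.6.3) and adjusted the counts for batch with ComBat-seq, which makes the values as deposited by the authors estimated counts. All 34807 rows held whole numbers (0 values were not whole), so rounding changed nothing. Whether counting used strand is not given in the sources used here. Gene symbols were found for 34672 Ensembl IDs. Exon lengths, overlaps, protein composition and windows of 101 bases shared with other genes came from the GENCODE annotation of that build.

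Groups came from the sample labels. A gene was kept when any library had 5 or more counts (32031 genes), following the study, and tested with edgeR 4.0.16 (R 4.3.3; TMM, robust quasi-likelihood F test, Benjamini-Hochberg adjustment over all genes tested, adjusted p under 0.05), in place of the study's DESeq2. CPM was scaled with TMM factors, and folds are log2 with ± SE. DESeq2 1.42.0, RLE scaling, other filters, other scalings of the levels, a replicate block and leaving out each library were alternatives. The fit of 15 libraries with DESeq2 was added after seeing the data. Counts of libraries of the same group differed by more than counting error in all 37 pairs (chi-square over its degrees of freedom at least 25.9). The model was tested on simulated data.

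Named genes were all keratins analysed, the 3 KAPs of each class with the highest mean CPM, up to 3 members per direction with the smallest adjusted p in each comparison, and genes of the marker lists where a list is broken down. Krtap3-2, Krtap5-4, Krtap29-1 and Krtap4-8 were named after their values were seen. The members, the marker lists and the tests were chosen with earlier results of these data known. Of the rule's keratins 1 is not reported here. The ± SE values come from the edgeR fit and include the fitted spread between samples. The 3-count floor covers counting error only.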

Additional observations from a re-analysis of the deposited data

Results flagged for a closer look

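Of 95 sets of values (the summed levels of all members and of classes, and each keratin, within each tumour or skin group), 35 had 1 sample whose gap to its neighbour exceeded Dixon's 95% limit for a group of that size. That limit holds for normally distributed values, and these were unlogged CPM with wide ranges within groups. The number flagged can therefore not be set against a rate by chance, and the sets share libraries.

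K14 tumour 1 stood above the other 3 K14 tumours in 25 of them. Its summed level was 2140 CPM, of which inner root sheath keratins made up 1066, shaft keratins 427, ultra-high sulphur KAPs 143, high sulphur KAPs 257 and high glycine-tyrosine KAPs 245 CPM. All 7 sheath keratins stood apart, with Krt25 at 267, Krt26 at 26.7, Krt27 at 173, Krt28 at 42.7, Krt71 at 464, Krt72 at 27.3 and Krt73 at 65.2 CPM. Of the type I shaft keratins Krt31 was at 43.9, Krt32 at 7.34, Krt33a at 59.8, Krt33b at 31.6, Krt34 at 41.9, Krt35 at 37.2 and Krt36 at 4.02 CPM. Of type II, Krt81 was at 37.1, Krt82 at 8.43, Krt83 at 48.2, Krt86 at 50.2 and Krt87 at 49.8 CPM. Krt84 was the keratin that did not stand apart there.

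K5 tumour 1, of the set of 4 libraries, stood above the other 4 K5 tumours in the sum (27.3 CPM), in the shaft keratins (22.8) and in Krt84 (20.5). K5 tumour 4 stood apart in Krt28 (0.187 CPM) and K5 tumour 2 in Krt82 (0.633), both small values. Ivl tumour 2, also of the set of 4, stood above the other 5 Ivl tumours in Krt71 (786 CPM), Krt35 (129), Krt87 (109.6), Krt83 (109) and Krt31 (87.8).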

How the results depend on the processing

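With 4 skin samples of which 1 was low, and 1 high K14 tumour of 9, single libraries set how many members passed. K5/K14 tumours against skin gave 6 members, 11 with at least 10 counts in 4 libraries, 22 with a replicate block, 9 with RLE scaling, 7 with DESeq2, and 4 to 76 when 1 library was left out (4 without normal skin 1, 76 without K14 tumour 1). Ivl tumours against skin gave 0, 1 within the 15 libraries and 2 there with DESeq2, and 0 to 0 with a library left out. Ivl against K5/K14 tumours gave 0, 1 with DESeq2, and 0 to 56 with a library left out (56 without K14 tumour 1). K5 against K14 tumours gave 0, 48 with DESeq2 and 48 within the 15 libraries with DESeq2. Apart from the leave-outs, the cause was not tested. Replicate numbers were taken only to name samples. Same-numbered samples deviated together in 10 of 25 pairs (correlation over 0.1, range -0.39 to 0.47), and samples with other numbers in 37 of 109 pairs. The replicate block called 0 members in the other 3 comparisons. Direction turned for Krt84 against skin with the replicate block (0.042 for K5/K14, 0.028 for Ivl). With a library left out, Krt84 ranged from -0.76 to 0.74 for K5/K14 and from -0.75 to 0.75 for Ivl tumours, and in Ivl tumours Krt32 ranged from -1.51 to 0.081 and Krt82 from -1.67 to 0.33, highest without normal skin 1. Krt36 and Krt32 stayed lower in K5/K14 tumours under every alternative run, and Krtap4-8 missed the threshold in 14. RLE scaling moved the median of all genes from -0.60 to -0.71 (K5/K14) and from -0.46 to -0.59 (Ivl). Median summed levels moved by less than 1 SD under library totals or DESeq2 size factors. In normal skin this limit is wide, with sums from 16.1 to 5427 CPM. Under library totals the sums of normal skin 1, 3 and 4 rose to 9003, 3244 and 3404 CPM, while that of K14 tumour 1 was 2109. Levels of tumours against skin thus depend on the scaling. For members at 3 counts or fewer, depth sets what can be seen.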
